A study of Mus musculus with 29 samples.

Results

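The genes examined were 10 components of T cell antigen receptor signalling: the CD3 chain genes Cd3d, Cd3e, Cd3g and Cd247, the pre-T cell receptor alpha gene Ptcra, the kinase gene Zap70, the adaptor genes Lat and Lcp2, the costimulatory receptor gene Cd28 and the membrane glycoprotein gene Cd7. They were found by symbol among 24732 entries of the mm9 expression tables and 25588 entries of the mm10 tables, with 1 entry per gene in each. The values are TPM, a length-corrected share of the mRNA of a library that can be compared between genes. RNA-seq libraries were available for FACS-sorted, ex vivo bone marrow pro-B cells of C57BL/6 mice: 3 of wild-type genotype, 2 of Pax5(-/-) genotype and 3 labelled Pax5(+/+) Meox2-cre. Pax5 is the transcription factor that commits lymphoid progenitors to the B cell lineage, and Meox2-cre expresses Cre recombinase ubiquitously from the Meox2 locus. According to the methods of the study, the Meox2-cre mice were 3 weeks old, and their labels describe pooled cells and a Pax5(+/+) genotype, whereas the sequencing list of the study gives Pax5(+/-). The methods sorted B220+ Kit+ cells with different further markers for each genotype, among them CD2-, IgM- and IgD- for pro-B cells and Ly6D+ for Pax5-deficient progenitors, so that genotype and sorting gate cannot be told apart.

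T cells signal through an antigen receptor whose clonotypic chains have no signalling motifs of their own. They assemble with the CD3 gamma, delta, epsilon and zeta chains, the last encoded by Cd247, whose ITAM tyrosines are phosphorylated by Lck and then bind ZAP-70, which phosphorylates the scaffolds LAT and SLP-76 (Lcp2). B cell progenitors use a parallel set of proteins, with CD79A and CD79B as ITAM chains, SYK as the kinase and BLNK as the adaptor, and Cd247 and Lcp2 are also used by NK cells and, in the case of Lcp2, by myeloid cells and platelets.

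The genotype labels were first compared with the expression of the targeted gene and of the sort markers. Pax5 was at 342, 386 and 391 TPM in the wild-type libraries against 43.0 and 39.1 TPM in Pax5(-/-) libraries, in which transcripts of a mutated allele would still be counted. Ly6d was at 190 to 270 TPM in wild-type and at 2260 and 3030 TPM in Pax5(-/-) libraries. Ly6D was a sort marker of the Pax5-deficient progenitors alone, so that its level reflects the gate and does not check the genotype. All 13 genes of the pro-B marker list were above 1 TPM in every library, but their summed level was lower in Pax5(-/-) libraries. It was 14300, 17300 and 14600 TPM in wild-type and 5070 and 4690 TPM in Pax5(-/-) libraries. Each library summed to 1000000 TPM, so that the number of reads behind a value is unknown. A relative depth was estimated from the ratios between libraries of values below 1 TPM, with wild-type replicate 1 set to 1. It was 1.02 and 1.03 in the other wild-type libraries and 0.855 and 1.54 in Pax5(-/-) replicates 1 and 2. Low transcripts were thus more easily listed at 0 in Pax5(-/-) replicate 1. The labels do not say that libraries of a group came from separate mice, so that p-values measure the spread between these samples, which may be technical.

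The levels of the 10 genes ranged from barely detected to clearly expressed. Cd3d, Cd3e, Cd3g, Ptcra and Cd28 stayed below 0.5 TPM in all 8 libraries, with a highest value of 0.434 TPM, whereas Zap70 and Lat were above 9 TPM in every library. Cd247, Lcp2 and Cd7 lay between these groups or moved between them with the genotype or the library. By mean level in wild-type pro-B cells, Lat came first with 38.0 ± 17.0 TPM (SD, n = 3), followed by Zap70 with 18.2 ± 3.54 TPM, Lcp2 with 7.10 ± 3.16 TPM, Cd7 with 0.836 ± 0.314 TPM and Cd247 with 0.512 ± 0.356 TPM. The wild-type ranges of Lat and Zap70 overlapped, as did those of Cd7 and Cd247, whereas every wild-type value of Lcp2 lay between those of Zap70 and Cd7. In Pax5(-/-) cells the order was Lat with 43.6 ± 0.797 TPM (SD, n = 2), Cd247 with 11.5 ± 1.17 TPM, Zap70 with 9.55 ± 0.0537 TPM, Cd7 with 8.44 ± 11.1 TPM and Lcp2 with 0.402 ± 0.119 TPM. The Cd7 values of the Pax5(-/-) libraries lay on either side of those of Cd247 and Zap70, which did not overlap with each other, and those of Lcp2 overlapped with Cd28, which ranged from 0.309 to 0.380 TPM. Cd247 thus moved from the fifth to the second place and Lcp2 from the third to the fifth. The mean of Lat exceeded those of 81.4% of all mm9 entries in wild-type cells, and the mean of Cd3d exceeded those of 47.0%.

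**Figure D1:**
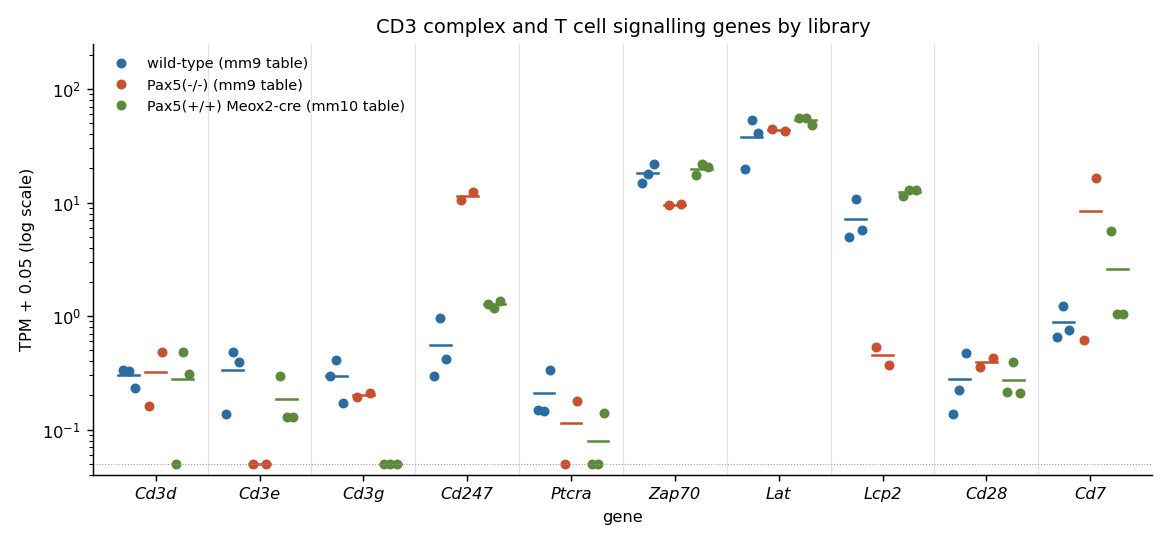
TPM plus 0.05 on a log axis for the 10 genes, with 1 point per library, a line at each group mean and a dotted line where a value of 0 falls. Cd247 was at 10.6 and 12.3 TPM in the Pax5(-/-) libraries against 0.248 to 0.917 TPM in wild-type, Lcp2 moved the other way, and Cd3d, Cd3e, Cd3g, Ptcra and Cd28 stayed near the floor in all groups.

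Differences between Pax5(-/-) and wild-type pro-B cells were fitted with limma on log2(TPM + 0.5) over the 12066 entries whose mean exceeded 1 TPM in either genotype. Of the 10 genes, 5 passed this filter (Cd247, Zap70, Lat, Lcp2 and Cd7) and the other 5 were not tested. Cd247 and Cd7 passed it only through their Pax5(-/-) means and Lcp2 only through its wild-type mean. For such genes, here and in the lists below, the filter largely set the direction in which they could differ. For a call, the adjusted p had to be below 0.05, the change had to exceed 3-fold and the mean of either genotype had to exceed 5 TPM, which 2.71% of all tested entries met as higher and 3.15% as lower. Cd247 was called as higher and Lcp2 as lower in Pax5(-/-) cells. At the adjusted p alone, which 15.6% of all tested entries passed as higher and 21.5% as lower, 1 gene was higher (Cd247) and 2 were lower (Lcp2 and Zap70). The libraries of both genotypes did not overlap for these 3 of 5 genes, as was the case for 63.4% of all tested entries.

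Among the receptor chain genes, only Cd247 passed the filter on low values, through its Pax5(-/-) mean alone, and it was higher in Pax5(-/-) cells. It was at 0.248, 0.917 and 0.372 TPM in the wild-type libraries, whereas the Pax5(-/-) libraries gave 10.6 and 12.3 TPM. Both Pax5(-/-) values were far above all wild-type values, and the mean TPM was 22.4-fold higher. In the limma fit the log2 fold change was 3.62 ± 0.32 (SE) with an adjusted p of 0.0002, and it ranged from 3.07 to 4.39 over 13 alternative settings with adjusted p-values of 0.00011 to 0.023. The Cd247 entry (mm9, chr1:167718812-167807407, plus strand) carries an overlap mark in the mm9 tables and shares 12123 bases with Pou2f1, an octamer-binding factor gene on the opposite strand. Pou2f1 was at 21.6, 22.7 and 23.7 TPM in wild-type and at 15.7 and 13.2 TPM in Pax5(-/-) libraries, a log2 fold change of -0.63 ± 0.15 (limma, adjusted p = 0.013), and thus moved in the direction opposite to that of Cd247.

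The other CD3 chains were close to 0 in the same cells. Cd3e, the epsilon chain that pairs with both the gamma and the delta chain, was at 0.0882, 0.432 and 0.341 TPM in wild-type libraries and was listed at 0 in both Pax5(-/-) libraries. Cd3d, the delta chain, was at 0.286, 0.280 and 0.184 TPM in wild-type and at 0.111 and 0.431 TPM in Pax5(-/-) libraries, and Cd3g, the gamma chain, was at 0.248, 0.364 and 0.120 TPM and at 0.145 and 0.160 TPM. For Cd3d and Cd3g the genotypes overlapped, and for Cd3e both Pax5(-/-) values lay below the wild-type values at a level where the difference was not tested. When the filter on low values was left out, limma gave Cd3e a log2 fold change of -0.63 ± 0.24 (adjusted p = 0.23). Summed over Cd3d, Cd3e and Cd3g, the level was 0.621, 1.08 and 0.645 TPM in wild-type libraries and 0.256 and 0.592 TPM in Pax5(-/-) libraries. Cd247 was therefore below this sum in each wild-type library (0.398-fold to 0.852-fold) and 41.6-fold and 20.8-fold above it in the Pax5(-/-) libraries. The 3 genes form a cluster on chromosome 9 (mm9), in which Cd3g (chr9:44777655-44788514, minus strand) and Cd3d (chr9:44789876-44795135, plus strand) diverge from ends 1361 bases apart, with Cd3e (chr9:44806826-44817673, minus strand) beyond Cd3d.

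Ptcra encodes the invariant chain that pairs with the T cell receptor beta chain in thymocytes. It was at 0.0987, 0.0968 and 0.286 TPM in wild-type libraries and at 0 and 0.128 TPM in Pax5(-/-) libraries, so that the genotypes overlapped. Its partner moved differently, as the entry for the second beta constant region was at 7.32, 5.20 and 2.65 TPM in wild-type and at 102 and 110 TPM in Pax5(-/-) libraries (log2 fold change 4.36 ± 0.34, limma, adjusted p = 0.00011). The alpha constant region Trac was at 0.613, 0.902 and 1.78 TPM in wild-type libraries and was listed at 0 in both Pax5(-/-) libraries (log2 fold change -1.61 ± 0.38, limma, adjusted p = 0.014). The beta entry was thus high, together with Cd247, in cells in which Trac and Cd3e were listed at 0. The T cell receptor entries were chosen for display with values of these data known, and the study left such entries out of its calls.

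Markers of other cells that use CD3 zeta moved with Cd247 in part. The summed level of the 12 T cell markers was 107 to 109 TPM in wild-type and 266 and 270 TPM in Pax5(-/-) libraries, of which Lck made up 196 and 198 TPM. Of the 6 that passed the filter, 5 were higher (Lck, Tcf7, Cd4, Cd6 and Trat1) and 1 was lower (Cd5) at the adjusted p, against 15.6% and 21.5% of all tested entries. Cd4, Cd6 and Trat1 had wild-type means of 0.534, 0.642 and 0.0596 TPM. They passed the filter only through their Pax5(-/-) means, which largely set their direction, so that the count does not measure a trend of the list. Cd4 was at 0.368 to 0.712 TPM in wild-type and at 3.97 and 5.88 TPM in Pax5(-/-) libraries (log2 fold change 2.38 ± 0.29, limma, adjusted p = 0.00086), and Tcf7 was at 23.9 to 44.9 TPM and at 57.9 and 56.9 TPM (0.92 ± 0.26, limma, adjusted p = 0.027). Themis and Cd8b1 were listed at 0 in both Pax5(-/-) libraries, and Bcl11b, which defines committed T cells, was at 0.0561 and 0.0517 TPM. These 3 genes were near the floor in wild-type libraries too, at no more than 0.0307, 0.0877 and 0.032 TPM. The summed level of the 9 NK cell markers was 10.3 to 21.6 TPM and 23.8 and 32.9 TPM. Ncr1 and Klre1 were listed at 0 in both Pax5(-/-) libraries and were at no more than 0.167 and 0.134 TPM in wild-type libraries. Of the 5 NK cell markers that were tested, Nkg7 and Gzma were higher, with log2 fold changes of 2.31 ± 0.42 and 2.27 ± 0.38 (limma, adjusted p = 0.0049 and 0.0036), and Klrb1c and Prf1 were lower, with -1.69 ± 0.51 and -1.84 ± 0.43 (limma, adjusted p = 0.035 and 0.014). The 5 markers of innate lymphoid progenitors summed to 3.47 to 6.75 TPM in wild-type and to 31.3 and 33.7 TPM in Pax5(-/-) libraries. Most of the latter came from Id2, at 26.3 and 26.1 TPM against 3.09 to 5.96 TPM in wild-type libraries. Il18r1, at 4.86 and 7.25 TPM in Pax5(-/-) libraries, passed the filter only through them. Its wild-type mean was 0.129 TPM. Il1rl1, which was not tested, was lower in Pax5(-/-) libraries, at 0.0425 and 0.129 TPM against 0.254, 0.517 and 0.72 TPM. Zbtb16 and Rora stayed below 0.2 TPM in all libraries. In RNA of sorted bulk cells, a change in the number of cells of a type and a change in RNA per cell cannot be told apart, and the part of these markers in the Cd247 difference was not tested.

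Promoter sequences of Cd247 and Cd3e are shown because these chains of the same receptor complex had the most unlike levels in Pax5(-/-) cells. They hold the 250 bases before the RefSeq start (GRCm38.p6), written 5′ to 3′ on the strand of the gene, at chr1:165788431-165788680 (plus strand) for Cd247 and chr9:45009612-45009861 (minus strand) for Cd3e. Capitals mark the letters of 5 motifs that were searched on both strands: the E-box CANNTG, to which E-proteins bind, the Runx motif TGTGGT of the core binding factors, the Ets motif CAGGAAG of factors such as ETS1, the Gata motif AGATAA of factors such as GATA3, and the motif CTTTGA of Tcf and Lef factors.
Cd247 promoter: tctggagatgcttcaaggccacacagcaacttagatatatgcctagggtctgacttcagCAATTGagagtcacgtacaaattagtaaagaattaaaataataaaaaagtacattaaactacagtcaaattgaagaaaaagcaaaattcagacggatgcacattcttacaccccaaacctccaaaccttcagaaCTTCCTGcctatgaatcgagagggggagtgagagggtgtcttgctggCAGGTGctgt
Cd3e promoter: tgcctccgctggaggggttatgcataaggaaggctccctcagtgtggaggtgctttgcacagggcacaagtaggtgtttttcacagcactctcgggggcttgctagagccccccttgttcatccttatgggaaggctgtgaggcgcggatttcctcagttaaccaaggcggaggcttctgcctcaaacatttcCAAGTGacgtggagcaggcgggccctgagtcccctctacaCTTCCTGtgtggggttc
Both windows held CTTCCTG, the reverse of the Ets letters, which begins 57 bases before the start of Cd247 and 17 bases before that of Cd3e and which 10.8% of 32851 promoters of this length held on either strand. The CANNTG letters occurred in 2 places in the Cd247 window and in 1 place in the Cd3e window, and 66.2% of all promoters held them. Neither window held the letters for Runx, Gata or Tcf and Lef factors, which 14.0%, 9.99% and 13.8% of all promoters held. RefSeq promoters were matched for 8 of the 10 genes, all but Cd28 and Cd7, and a match of letters is a description of the window and not a binding site.

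Zap70, the kinase that docks on phosphorylated CD3 chains, was expressed in pro-B cells of all groups. It was at 14.9, 17.7 and 21.9 TPM in wild-type libraries and at 9.51 and 9.59 TPM in Pax5(-/-) libraries. Both Pax5(-/-) values were below all wild-type values, the mean TPM was 1.91-fold lower, and the log2 fold change was -0.88 ± 0.19 (limma, adjusted p = 0.011). The adjusted p rose to 0.11 or 0.12 when either Pax5(-/-) library was left out and to 0.079 without the filter on low values, with log2 fold changes of -0.87 or -0.88. Syk, the related kinase of B cell receptor signalling, was at 387, 407 and 431 TPM in wild-type and at 283 and 263 TPM in Pax5(-/-) libraries (log2 fold change -0.58 ± 0.10, limma, adjusted p = 0.0033). Zap70 thus amounted to 3.86%, 4.36% and 5.10% of Syk in wild-type libraries and to 3.36% and 3.65% in Pax5(-/-) libraries. Zap70 lies at chr1:36818695-36839663 (mm9, plus strand), and its neighbours with an entry, Actr1b and Tmem131, differed between genotypes by log2 fold changes of -0.03 ± 0.09 and 0.04 ± 0.12 (limma, adjusted p = 0.80 and 0.84).

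The adaptors downstream of the kinases behaved differently. Lcp2, which encodes SLP-76, was at 4.88, 10.7 and 5.70 TPM in wild-type libraries and at 0.487 and 0.318 TPM in Pax5(-/-) libraries. Every Pax5(-/-) value was below all wild-type values, and the mean TPM was 17.6-fold lower. In the limma fit the log2 fold change was -3.00 ± 0.35 with an adjusted p of 0.00067, with a range of -3.78 to -2.46 and adjusted p-values of 0.00046 to 0.04 over 13 alternative settings. A test against a change of 3-fold (limma treat) gave an adjusted p of 0.076 for Lcp2 and of 0.010 for Cd247. Lat, the membrane scaffold that SLP-76 joins through Grap2, was at 19.6, 53.1 and 41.2 TPM in wild-type and at 44.2 and 43.0 TPM in Pax5(-/-) libraries. The Pax5(-/-) values lay within the wild-type range, the log2 fold change was 0.31 ± 0.36 (limma, adjusted p = 0.53), and without wild-type replicate 1, which had the lowest value, it was -0.10.

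Grap2, the linker between both adaptors, was at 10.6, 12.0 and 12.4 TPM in wild-type and at 66.6 and 58.3 TPM in Pax5(-/-) libraries (log2 fold change 2.37 ± 0.14, limma, adjusted p = 3.3e-05). In Pax5(-/-) cells the linker was thus higher, the Lat scaffold was within the wild-type range and Lcp2 was lower. Blnk, the SLP-76 relative of B cells, fell together with Lcp2, from 808, 1150 and 955 TPM to 163 and 104 TPM (log2 fold change -2.88 ± 0.21, limma, adjusted p = 8.3e-05). Lcp2 amounted to 0.597% to 0.929% of Blnk in wild-type and to 0.298% and 0.305% in Pax5(-/-) libraries, so that Blnk was the more abundant of both in every library. Lat2, the LAT relative of B and myeloid cells, rose from 5.60, 5.79 and 5.93 TPM to 46.2 and 54.5 TPM (log2 fold change 3.01 ± 0.16, limma, adjusted p = 1.8e-05). Lat was 3.50-fold to 9.17-fold above Lat2 in wild-type libraries and 0.955-fold and 0.790-fold of Lat2 in Pax5(-/-) libraries, and it was 8.44-fold to 10.2-fold above Lat2 in the Meox2-cre libraries. Cd79a, the ITAM chain of the B cell receptor, fell from 4820, 5450 and 3670 TPM to 542 and 608 TPM (log2 fold change -3.00 ± 0.17, limma, adjusted p = 2.6e-05), and Cd247 amounted to 1.97% and 2.02% of it in Pax5(-/-) libraries against at most 0.0168% in wild-type libraries.

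**Figure D2:**
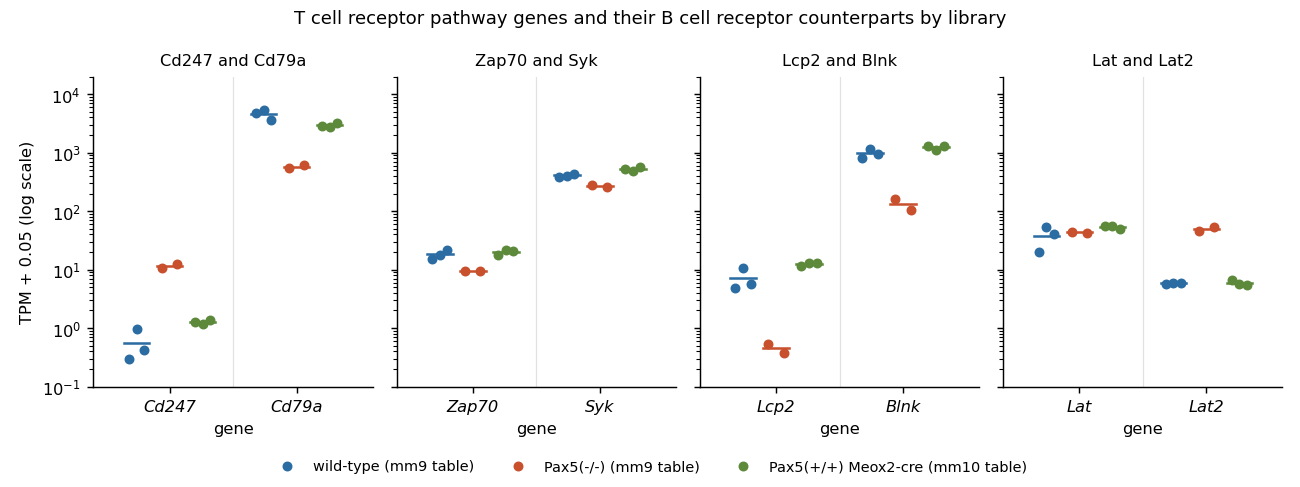
TPM plus 0.05 on a shared log axis for 4 pairs of a T cell receptor pathway gene and its B cell receptor counterpart, with 1 point per library and a line at each group mean. Zap70 and Lcp2 stayed well below Syk and Blnk in every library and were lower in Pax5(-/-) than in wild-type libraries, as their counterparts were, whereas Cd247 and Lat2 were higher in Pax5(-/-) libraries.

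Myeloid and erythroid transcripts varied between the libraries in which Lcp2 differed. The summed level of the 6 myeloid markers was 41.6, 168 and 140 TPM in wild-type libraries and 55.1 and 73.4 TPM in Pax5(-/-) libraries, and that of the 5 erythroid markers was 22.3, 53.5 and 68.5 TPM against 11.6 and 5.27 TPM. None of the myeloid markers was at 0 in the wild-type libraries, whereas S100a8 and Elane were listed at 0 in Pax5(-/-) replicate 1, and the haemoglobin gene Hbb-b1 was listed at 0 in all libraries. Wild-type replicate 1, with the lowest myeloid sum, also had the lowest Lcp2 value, and wild-type replicate 2, with the highest, also had the highest Lcp2 value. The other groups did not follow this order. Pax5(-/-) replicate 1 had the lower sum and the higher Lcp2 value, at 0.487 against 0.318 TPM. The Meox2-cre sums were 357, 649 and 269 TPM, with Lcp2 at 11.3, 12.8 and 12.9 TPM. Both Pax5(-/-) sums were above that of wild-type replicate 1, in which Lcp2 was at 4.88 TPM. The part of these cells in the Lcp2 difference was not tested. An antisense transcript, 4930469K13Rik, spans the whole of Lcp2 (mm9, chr11:33946920-33992295, plus strand). Antisense transcripts also span the whole of Ptcra (Gm16736) and of Cd7 (Gm11775). The mm9 reads were counted with the default settings of featureCounts, which ignore strand, so that reads from both strands of these genes cannot be told apart.

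The promoters of Lcp2 and Lat are shown because these partner adaptors differed in their response. The windows hold the 250 bases before the RefSeq start at chr11:34046678-34046927 (plus strand) for Lcp2 and chr7:126369569-126369818 (minus strand) for Lat (GRCm38.p6), with capitals as above.
Lcp2 promoter: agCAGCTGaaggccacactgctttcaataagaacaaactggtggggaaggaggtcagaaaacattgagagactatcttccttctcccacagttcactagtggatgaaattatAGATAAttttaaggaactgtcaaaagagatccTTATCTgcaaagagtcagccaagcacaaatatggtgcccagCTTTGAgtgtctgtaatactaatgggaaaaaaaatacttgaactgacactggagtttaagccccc
Lat promoter: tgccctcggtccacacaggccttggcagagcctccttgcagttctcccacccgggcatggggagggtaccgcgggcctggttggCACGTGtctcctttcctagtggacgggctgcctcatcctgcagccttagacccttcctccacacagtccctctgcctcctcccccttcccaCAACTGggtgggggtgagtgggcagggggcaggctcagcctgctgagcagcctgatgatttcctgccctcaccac
The Lcp2 window held CANNTG in 1 place, as CAGCTG 248 bases before the start. It also held the Gata letters in 2 places, as AGATAA 138 bases and TTATCT 106 bases before the start, and CTTTGA 65 bases before it. The Lat window held CANNTG in 2 places, as CACGTG 166 bases and CAACTG 75 bases before the start, and none of the other letters. Among the windows of the 8 genes, the Gata letters were also found in that of Cd3g, which was below 0.5 TPM in all libraries.

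The last pair of genes encodes receptors of the immunoglobulin superfamily. Cd28, the costimulatory receptor for CD80 and CD86, was at 0.0880, 0.173 and 0.425 TPM in wild-type and at 0.309 and 0.380 TPM in Pax5(-/-) libraries, within the wild-type range. Its neighbour Ctla4, which binds the same ligands and begins 113640 bases further on, was at 0, 0.0642 and 0.0633 TPM in wild-type and at 2.91 and 2.63 TPM in Pax5(-/-) libraries (log2 fold change 2.59 ± 0.28, limma, adjusted p = 0.00048). Cd86 was at 1.35, 1.57 and 1.64 TPM and at 3.44 and 4.62 TPM (log2 fold change 1.16 ± 0.25, limma, adjusted p = 0.0093). Of the 4 genes in the list of Cd28 and Cd7 ligands, Cd86 was the only one that passed the filter, and Sectm1b, which lies 14039 bases from Cd7, was listed at 0 in all libraries.

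Cd7, a glycoprotein of T cells, NK cells and early lymphoid progenitors, differed between libraries of the same group. It was at 0.609, 1.19 and 0.706 TPM in wild-type libraries and at 0.570 and 16.3 TPM in Pax5(-/-) libraries. Only Pax5(-/-) replicate 2 was above the wild-type range, and replicate 1 was below it. The log2 fold change was 1.69 ± 0.98 (limma, adjusted p = 0.21), and without Pax5(-/-) replicate 1 it was 3.68 with an adjusted p of 0.0062, a value that rests on a single library. Without Pax5(-/-) replicate 2 it did not pass the filter. In the Meox2-cre libraries Cd7 was at 5.61, 0.999 and 1.00 TPM, again with 1 library above the others.

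Markers of plasmacytoid dendritic cells differed between the same libraries. Siglech, the lectin that defines these cells, was at 1.79 and 9.06 TPM in Pax5(-/-) replicates 1 and 2 and at 3.79, 0.605 and 1.12 TPM in the Meox2-cre libraries, with 0.106 to 1.12 TPM in wild-type libraries. Ccr9, a chemokine receptor, was at 0.101 and 0.896 TPM and at 0.841, 0.184 and 0.316 TPM. The library with the highest Cd7 value also had the highest Siglech and Ccr9 values in the Pax5(-/-) and the Meox2-cre group, but not in the wild-type group, where Cd7 was highest in replicate 2 and both markers in replicate 3, at 1.12 and 0.195 TPM. Pacsin1 was at 7.41 and 8.86 TPM in the Pax5(-/-) libraries, Klk1 was listed at 0 in both, and Bst2 was at 120 and 163 TPM. In the Meox2-cre libraries Bst2 was at 119, 141 and 126 TPM and Klk1 at 0.249, 0.482 and 0.121 TPM, so that Bst2 was lowest in the library with the highest Cd7 value and Klk1 was highest in another. The summed level of the 5 markers was 85.9 to 126 TPM in wild-type, 129 and 182 TPM in Pax5(-/-) and 126, 144 and 129 TPM in Meox2-cre libraries, most of it from Bst2, and its part in the Cd7 values was not tested.

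**Figure D3:**
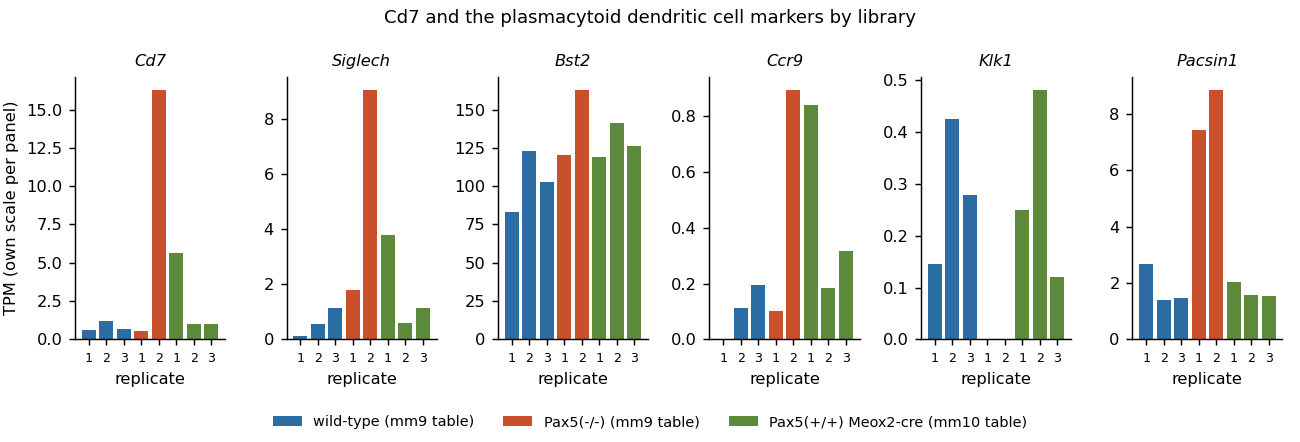
TPM of Cd7 and of the 5 plasmacytoid dendritic cell markers in each library, with 1 bar per library and a scale of its own in each panel, all starting at 0. Cd7 and Siglech were highest in Pax5(-/-) replicate 2, at 16.3 and 9.06 TPM, and were higher in Meox2-cre replicate 1 than in the other Meox2-cre libraries.

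The Meox2-cre pro-B cells were aligned and counted on another build and annotation, so that their levels are given side by side with the others and were not compared by a test. Lat was at 55.3, 56.1 and 48.6 TPM, Zap70 at 17.4, 21.7 and 20.6 TPM and Lcp2 at 11.3, 12.8 and 12.9 TPM. These genes came in the same order as in the wild-type libraries, and no 2 of their ranges overlapped. Cd247 was at 1.22, 1.13 and 1.31 TPM, and its mm10 entry carries no overlap mark. Cd3d was at 0, 0.434 and 0.261 TPM, Cd3e at 0.245, 0.0793 and 0.0795 TPM, Ptcra at 0, 0 and 0.0903 TPM and Cd28 at 0.166, 0.348 and 0.161 TPM, whereas Cd3g was listed at 0 in all 3 libraries. The beta constant region Trbc2 was at 6.02, 4.84 and 2.18 TPM and Trac at 2.17, 3.71 and 2.60 TPM in these libraries.

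The wider pathway held genes that were higher and genes that were lower in Pax5(-/-) cells, as did all tested entries, of which 15.6% were higher and 21.5% were lower. Of 26 further T cell receptor kinases, adaptors and effectors, 22 were tested, of which 8 were higher and 6 were lower in Pax5(-/-) cells at the adjusted p, with a median log2 fold change of 0.14 against -0.12 over all tested entries. The largest changes were those of Sit1, a transmembrane adaptor that recruits phosphatases, which fell from 207, 175 and 148 TPM to 4.44 and 3.07 TPM (log2 fold change -5.39 ± 0.19, limma, adjusted p = 4.0e-06), of Fyb, an adaptor that binds SLP-76, which rose from 0.659, 1.74 and 1.81 TPM to 8.80 and 11.0 TPM (2.51 ± 0.35), and of Skap1, the partner of Fyb, which fell from 5.32, 3.74 and 3.63 TPM to 0.338 and 0.337 TPM (-2.48 ± 0.27). Lck, the kinase that phosphorylates the CD3 chains, rose from 70.9, 54.8 and 72.2 TPM to 196 and 198 TPM (log2 fold change 1.58 ± 0.14, limma, adjusted p = 0.00018). The T cell kinase Txk stayed below 0.5 TPM in all libraries, as did Themis and Sh2d1a.

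The negative regulators of T cell receptor signalling were split evenly. Of 15 genes, all of them tested, 5 were higher and 5 were lower at the adjusted p, with a median log2 fold change of -0.03. The adaptor Sla2 rose from 3.38, 4.11 and 2.44 TPM to 18.4 and 21.9 TPM (log2 fold change 2.46 ± 0.24), and Dok2 rose from 14.2, 13.9 and 11.8 TPM to 62.8 and 72.8 TPM (2.31 ± 0.15). Ubash3a, a negative regulator of the STS family, fell from 71.3, 62.4 and 65.1 TPM to 12.1 and 12.0 TPM (-2.41 ± 0.12, limma, adjusted p = 1.6e-05).

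Of 14 coreceptors and costimulatory receptors, 11 were tested, 5 were higher and 4 were lower, with a median log2 fold change of -0.01. Most of the genes that differed had passed the filter on low values through a single genotype, which largely set their direction. Cd4, Ctla4 and Cd96 passed it only through Pax5(-/-) cells and Pdcd1 only through wild-type cells. Cd96 rose from 0.464, 0.968 and 0.673 TPM to 13.0 and 14.4 TPM (log2 fold change 3.58 ± 0.26), and Cd27 rose from 11.2, 20.3 and 17.9 TPM to 145 and 167 TPM (3.24 ± 0.24). Pdcd1, which encodes the inhibitory receptor PD-1, fell from 5.64, 3.80 and 9.38 TPM to 0.230 and 0.255 TPM (-3.11 ± 0.36, limma, adjusted p = 0.00069). Of the coreceptors, Cd4 was higher in Pax5(-/-) cells, as given above, and the chains Cd8a and Cd8b1 stayed below 0.5 TPM in all libraries.

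The B cell receptor counterparts were mostly lower, with 8 of 12 tested genes lower and 2 higher (Lat2 and Plcg2) at the adjusted p and a median log2 fold change of -0.65. Of the 3 innate signalling adaptors, Fcer1g, an ITAM chain that can pair with CD3 zeta, rose from 4.04, 11.5 and 15.3 TPM to 68.4 and 90.8 TPM (log2 fold change 3.06 ± 0.47, limma, adjusted p = 0.0025), whereas Tyrobp and Hcst did not pass the adjusted p. Cd247 thus remained below Fcer1g in every library, at 2.44% to 7.97% of it in wild-type and 15.6% and 13.5% in Pax5(-/-) libraries.

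**Figure D4:**
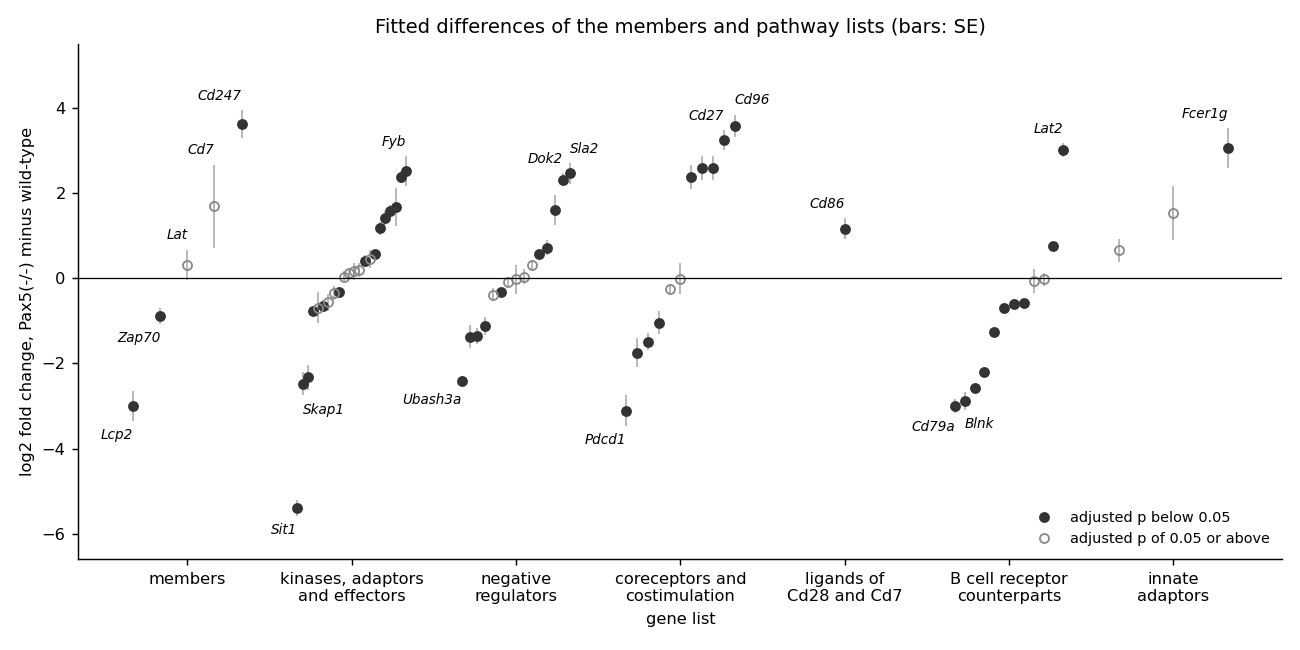
Log2 fold change (Pax5(-/-) minus wild-type, with SE bars) of each tested gene, by list, with filled points for an adjusted p below 0.05. Cd247 at 3.62 and Lcp2 at -3.00 lay at opposite ends of the 5 tested members, and each of the lists of kinases, negative regulators and costimulatory receptors held genes past the threshold in both directions.

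Neighbouring genes were examined to see whether the differences extended beyond the genes themselves. Creg1, which ends 13372 bases before Cd247, was at 26.3 to 32.5 TPM in wild-type and at 31.8 and 29.5 TPM in Pax5(-/-) libraries, and Dusp27 on the other side stayed below 0.05 TPM. Both neighbours of Lcp2, Kcnip1 and Foxi1, were below 0.1 TPM in all libraries. The nearer neighbour of Lat (mm9, chr7:133507346-133513057, minus strand), Spns1, 516 bases away, was at 25.5 to 35.1 TPM and at 31.1 and 30.1 TPM (log2 fold change 0.03 ± 0.16, limma, adjusted p = 0.88). Sbk1 on the other side of Lat, 68832 bases away, fell from 183, 194 and 187 TPM to 69.4 and 63.8 TPM (log2 fold change -1.49 ± 0.10, limma, adjusted p = 4.3e-05). Both neighbours of Ptcra were higher in Pax5(-/-) cells, Cnpy3 by a log2 fold change of 0.40 ± 0.10 and 2310039H08Rik by 1.11 ± 0.16 (limma, adjusted p = 0.016 and 0.0019), although Ptcra itself stayed below 0.5 TPM. Ube4a beside Cd3g and Csnk1d beside Cd7 had log2 fold changes of -0.27 ± 0.16 and 0.06 ± 0.11 (limma, adjusted p = 0.22 and 0.72).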

How the data were processed

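RNA-seq values of 8 pro-B cell libraries were used. The deposited tables hold TPM, which the authors calculated within each library from reads per gene and gene length, including those of immunoglobulins and T cell receptors. Reads of ribosomal RNA were removed by the authors, who aligned the wild-type and Pax5(-/-) libraries to mm9 with TopHat 1.4.1a and the Meox2-cre libraries to mm10 with STAR 2.4.2a, and counted with featureCounts 1.5.0 on refGene annotations. The meaning of the mark on Cd247 and Lat is not given in the sources used here, and it is called an overlap mark only after its letters. No other gene overlapped Lat in the mm9 positions used here. Lcp2, Ptcra and Cd7, which antisense transcripts span, carry no such mark. Entries were matched by the name before any such mark. The authors called genes with DESeq2 on counts. The TPM were tested here with limma 3.58.1 (eBayes with trend, R 4.3.3) on log2(TPM + 0.5), with Benjamini-Hochberg adjustment over 12066 entries. Fold changes on this scale understate those of low genes. An exact permutation test of 3 against 2 libraries cannot go below p = 0.1 and was not used. The script was tested on simulated data. Positions in mm9 came from GENCODE M1 and promoters from RefSeq.

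The members and lists were chosen with earlier results of these data known. Values are given for all members, for the 3 genes of each list with the largest change past the adjusted p, for markers and for the nearest neighbours, and Lck, Grap2, Syk, Plcg2, Ctla4 and the T cell receptor entries were added after values were seen. Replicate numbers follow the order of deposition and only name libraries. Alternatives were pseudocounts of 0.1 and 1, a filter at 5 TPM or none, eBayes with no trend, median ratio rescaling, quantile normalization, removal of immunoglobulin and T cell receptor entries, leaving out each library and, for calls, a 2-fold threshold and limma treat against 3-fold. Figures were drawn with matplotlib 3.10.9. The ChIP-seq and B-ALL samples of the series are not analysed here. Some sort markers and list genes are not reported here.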

Additional observations from a re-analysis of the deposited data

How the results depend on the processing

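Cd247 and Lcp2 kept their direction and an adjusted p below 0.05 in the limma fit under all 13 alternative settings. The 1 call of a lower member (Lcp2) became 0 when tested against 3-fold with limma treat, where the adjusted p was 0.076. Without the filter on low values, members lower at the adjusted p went from 2 to 1, since Zap70 no longer passed, and pathway list genes that were higher from 22 to 14. When single libraries were left out, members called as higher ranged from 1 to 2, members higher at the adjusted p from 1 to 2 and members lower at the adjusted p from 1 to 2. The upper value of the first 2 ranges came without Pax5(-/-) replicate 1, where Cd7 passed, and the lower value of the last without either Pax5(-/-) replicate, where Zap70 did not. The lone Pax5(-/-) library is then assumed to vary like the wild-type libraries. Pathway list genes that were lower ranged from 14 to 24 against 23 with all libraries, and those that were higher from 16 to 23. The log2 fold change of Lat, which did not pass in any setting, ranged from -0.10 without wild-type replicate 1 to 0.61 when single libraries were left out. Median ratio rescaling moved the median log2 fold change of all entries from -0.12 to 0, and the share of higher genes among calls from 46.3% to 52.1%. No paired analysis was possible because no replicate number is given in the labels. TPM carry no read counts, so that differences among genes below 0.5 TPM could not be resolved, and 2 Pax5(-/-) libraries limit the precision of every comparison.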
